A study of Mus musculus with 4 samples.

Results

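The clustered replication-dependent histone genes were read on mouse expression arrays by 56 of 41345 probe sets. A probe set was taken as a member where every gene symbol of its platform annotation named a linker histone gene (H1f1 to H1f5) or a clustered core histone gene of the H2A, H2B, H3 or H4 family. Of the 56 probe sets, 26 carried 1 symbol and stood for 25 genes, 4 of them linker and 21 core, among 22180 genes in all with a probe set of their own. The other 30 carried several histone symbols and are described apart. Together the 56 probe sets named 57 histone genes, and 32 of these were named by shared probe sets alone.

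The lines were derived from MMTV-NIC mammary tumours that arose in female mice on the FVB background; in this model the mammary epithelium expresses activated ErbB2 together with Cre recombinase from 1 transcript under the MMTV promoter. All cells, controls included, carried this transgene and were grown with serum, EGF, hydrocortisone, insulin and bovine pituitary extract. Cells were harvested after 96 h with 2 µM GSK126, an inhibitor of the H3K27 methyltransferase EZH2 (n = 2 arrays), or with its vehicle DMSO (n = 2 arrays). The labels leave unsaid whether the 2 arrays of a group hold separate cultures or separate lines, and p-values therefore reflect only how much the arrays differ, possibly for technical reasons.

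Core histones form the octamer on which DNA is wound into nucleosomes, and linker histones bind the DNA between nucleosomes and compact it further. Most of the proteins are made in S phase from genes that lie in clusters, so that new histones match new DNA. Their messages end in a stem-loop in place of a poly(A) tail. The stem-loop binding protein carries these messages through processing and translation, and they are degraded when DNA synthesis stops.

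Values are log2 expression values as deposited, changes are GSK126 minus DMSO on that log2 scale with their standard error (SE), and a gene was called when its adjusted p in limma over all 22180 genes was below 0.05. A gene is termed dim when its mean over the 4 arrays lay below 4.77, the 40th percentile of all genes, and for dim genes the size of a change is uncertain. Array medians over all probe sets were 4.74 and 4.73 in DMSO and 4.79 and 4.78 with GSK126, so they were higher on both treated arrays. Correlations between arrays ran from 0.981 to 0.988. Of 8 mammary epithelial markers, 7 were above the dim limit (Krt19 ran from 4.62 to 4.89), and the summed log2 level of the 8 was 78.4 to 78.5 in DMSO and 77.9 to 78.1 with GSK126. Within this sum 5 markers had a lower and 3 a higher mean with GSK126, from -0.38 in Elf5 to 0.39 in Cldn4. All 4 immune markers measured were dim, with no value above 4.57, and their summed log2 level was 15.7 to 15.8 in DMSO and 15.2 to 15.3 with GSK126. The part of epithelial or immune marker levels in the histone values was not tested. Summed levels of the 4 fibroblast markers (19.7 to 20.1 against 19.9 to 20.2), 3 endothelial markers (13.9 to 14.3 against 14.0 to 14.5) and 2 adipocyte markers (8.22 to 8.25 against 8.06 to 8.32) overlapped between the groups. Of these, 2 fibroblast, 1 endothelial and 1 adipocyte marker were above the dim limit. Fibroblast markers had 2 lower and 2 higher means with GSK126, from -0.29 in Dcn to 0.45 in Pdgfra. In these bulk samples fewer cells in S phase and less histone RNA per cell cannot be told apart.

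The promoters of the 5 linker genes are shown because the only called gene, H1f5, is one of them, and so that its promoter letters can be read beside those of its relatives. Each line holds the 130 bases before the gene's start on the gene's own strand, from RefSeq on build GRCm38.p6. Capitals mark the letters of the H1 box (AAACACA), the CCAAT box (CCAAT) and the TATA box (TATAAA), each searched on both strands, and none of the marked runs overlaps another.
H1f1, chr13:23763538-23763667, plus strand: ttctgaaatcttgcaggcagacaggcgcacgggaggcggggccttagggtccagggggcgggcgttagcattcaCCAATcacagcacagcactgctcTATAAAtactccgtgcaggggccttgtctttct
H1f2, chr13:23738677-23738806, plus strand: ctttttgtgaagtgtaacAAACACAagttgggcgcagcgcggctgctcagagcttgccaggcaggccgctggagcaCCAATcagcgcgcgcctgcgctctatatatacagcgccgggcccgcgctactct
H1f3, chr13:23554902-23555031, plus strand: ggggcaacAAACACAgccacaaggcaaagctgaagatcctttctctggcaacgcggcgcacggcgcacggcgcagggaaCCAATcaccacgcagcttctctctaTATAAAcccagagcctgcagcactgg
H1f4, chr13:23622559-23622688, minus strand: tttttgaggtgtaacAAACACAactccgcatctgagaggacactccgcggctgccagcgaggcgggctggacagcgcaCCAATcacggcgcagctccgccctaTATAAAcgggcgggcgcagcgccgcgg
H1f5, chr13:21780626-21780755, minus strand: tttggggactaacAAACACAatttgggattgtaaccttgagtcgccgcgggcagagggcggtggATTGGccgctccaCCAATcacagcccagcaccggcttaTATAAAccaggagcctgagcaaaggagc

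The H1 box letters began 112 to 122 bases before the start in H1f2, H1f3, H1f4 and H1f5. The same-strand CCAAT lay 47 to 56 bases before the start in all 5, and H1f5 alone held a further CCAAT on the opposite strand within these bases. TATAAA was present in 4, and was not found in H1f2. Over the 250 bases before the start, AAACACA was present in 4 of 5 linker promoters, in 8 of 58 histone promoters (13.8%) and in 6.25% of all 32851 promoters in the table. A match of letters is a description and does not show that a factor binds there.

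Among the linker genes, H1f5 was the only one called. H1f5, also known as H1b, gave 7.18 and 6.85 on the DMSO arrays and 6.02 and 5.66 on the GSK126 arrays. Both treated values lay well below both control values. The fall was 2.25-fold (change -1.17, SE 0.16, 95% interval -1.56 to -0.79, adjusted p = 0.0395 in limma). Of all genes, 0.171% were called lower. Over the fits that leave out 1 array the change of H1f5 was largest when GSK126 replicate 1 was dropped (-1.35) and smallest when GSK126 replicate 2 was (-0.997), and in none of these 4 fits was it called (adjusted p from 0.119 to 0.464 in limma). The call also ended without the intensity trend in the prior variance (adjusted p = 0.235) and with every probe set tested by itself (adjusted p = 0.446). Whether its probes also match other linker transcripts was not examined here.

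The other linker genes did not pass the test. H1f1, also known as H1a, was dim and gave 3.48 and 3.42 in DMSO against 3.002 and 3.26 with GSK126 (change -0.32, SE 0.18), and its change was -0.19 without GSK126 replicate 1. H1f2, or H1c, gave 7.47 and 7.40 against 7.34 and 7.33 (change -0.11, SE 0.09). In both genes the groups did not overlap, although the gap between the nearest arrays of H1f2 was under 0.1. H1f3, or H1d, was dim and overlapped between groups, at 4.77 and 4.43 against 4.62 and 4.56. Its change was -0.01 (SE 0.17), and it turned to 0.16 without DMSO replicate 1 and to 0.02 without GSK126 replicate 2. The 95% intervals of these genes were -0.73 to 0.09 for H1f1, -0.33 to 0.11 for H1f2 and -0.41 to 0.39 for H1f3, all above the upper bound of H1f5. The difference in change between linker genes was not itself tested. H1f4, or H1e, had no probe set of its own. It shared 1 with H2bc4, H2bc6 and H2bc8, which gave 5.55 and 5.06 in DMSO and 4.91 and 5.21 with GSK126 (change -0.24, SE 0.23), with overlapping groups.

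**Figure D1:**
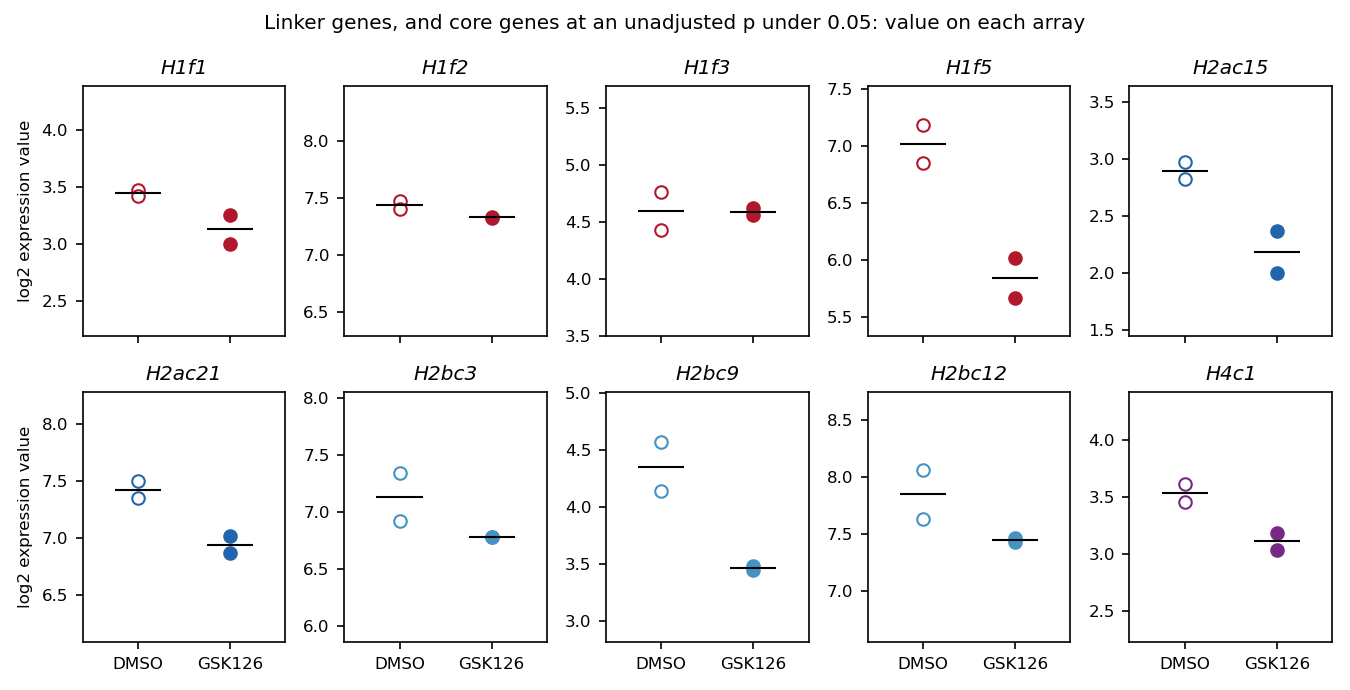
Log2 expression value (y axis) on each DMSO array (open points) and each GSK126 array (filled points), with group means as lines, for the 4 linker genes and the 6 core genes at an unadjusted p under 0.05. Every panel spans the same range of the log2 scale. The GSK126 points of H1f5, at 6.02 and 5.66, sit below its DMSO points at 7.18 and 6.85, while those of H1f3 lie between its DMSO points.

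H2A forms a dimer with H2B at the faces of the octamer. In the treated cells all 6 H2A genes had a lower mean (median change -0.30, range -0.71 to -0.17), and none was called in limma (2 lower and 0 higher at an unadjusted p under 0.05, against 5.93% and 4.64% of all genes). H2ac21 gave 7.35 and 7.499 in DMSO and 7.01 and 6.87 with GSK126 (change -0.48, SE 0.11, adjusted p = 0.183 in limma). A further probe set of H2ac21, dim, gave 3.66 and 3.97 against 4.04 and 3.42, with overlapping groups and a change of -0.08. H2ac15 was dim and gave 2.82 and 2.98 against 2.00 and 2.37 (change -0.71, SE 0.20). H2ac10, bright on all arrays, gave 10.9 and 11.03 against 10.58 and 10.85 (change -0.25, SE 0.11), and its change was -0.11 without GSK126 replicate 1 and -0.38 without GSK126 replicate 2. In those 3 of the 6 genes both treated arrays lay below both controls, as in 21.8% of all genes. H2ac20 (-0.22), the dim H2ac12 (-0.17) and H2ac1 (-0.36), a testis-type H2A gene whose DMSO arrays had an SD of 0.46, had overlapping groups. H2ac12 turned to 0.07 without DMSO replicate 1.

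Of the 8 H2B genes, 6 had a lower and 2 a higher mean with GSK126, the median change was -0.16, and none was called in limma (3 lower and 0 higher at an unadjusted p under 0.05, against 5.93% and 4.64% of all genes). H2bc9 had the largest difference among the core genes. It gave 4.14 and 4.57 in DMSO and 3.48 and 3.45 with GSK126 (change -0.89, SE 0.19, adjusted p = 0.169 in limma), and its mean was dim. H2bc12 gave 8.06 and 7.63 against 7.46 and 7.43 (change -0.40, SE 0.14), and H2bc3 gave 7.34 and 6.92 against 6.78 and 6.78 (change -0.35, SE 0.15). In these 3 of the 8 genes both treated arrays lay below both control arrays, as in 21.8% of all genes. In H2bc12 and H2bc3 the treated arrays lay far closer together than the controls. The change of H2bc12 was -0.19 without DMSO replicate 1 and -0.61 without DMSO replicate 2. H2bc18 (-0.23), H2bc21 (-0.09) and the testis-type gene H2bc1 (-0.08) had lower means with overlapping groups. H2bc14 (0.06) and H2bc22 (0.05) had higher means, also with overlap, and H2bc14 moved to -0.25 when GSK126 replicate 2 was dropped and to 0.38 when replicate 1 was.

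H4 pairs with H3 in the tetramer at the core of the nucleosome, and the clustered H4 genes encode the same protein. Of 7 H4 genes, 6 had a lower mean with GSK126 and the median change was -0.08, and none was called in limma (1 lower and 0 higher at an unadjusted p under 0.05, against 5.93% and 4.64% of all genes, so the H4 count is not far from that share). Of the 7, 6 were dim. H4c12, the exception, gave 11.28 and 11.22 in DMSO and 11.07 and 11.27 with GSK126. Its groups overlapped (change -0.08, SE 0.09, 95% interval -0.30 to 0.14), and the change turned to 0.02 without GSK126 replicate 1. H4c1 gave 3.61 and 3.46 against 3.19 and 3.04 (change -0.42, SE 0.17), with no overlap, as was also the case for H4c2 (-0.08). Both treated arrays thus lay below both controls in 2 of the 7, near the 21.8% of all genes. H4c14 (-0.32), H4c9 (-0.31) and H4c8 (-0.03) had overlapping groups, and the change of H4c14 was -0.045 without GSK126 replicate 1 and -0.59 without GSK126 replicate 2. H4c17 had the highest change of all 25 genes, 0.15 (SE 0.20), with overlapping groups, and turned to -0.06 without DMSO replicate 1.

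**Figure D2:**
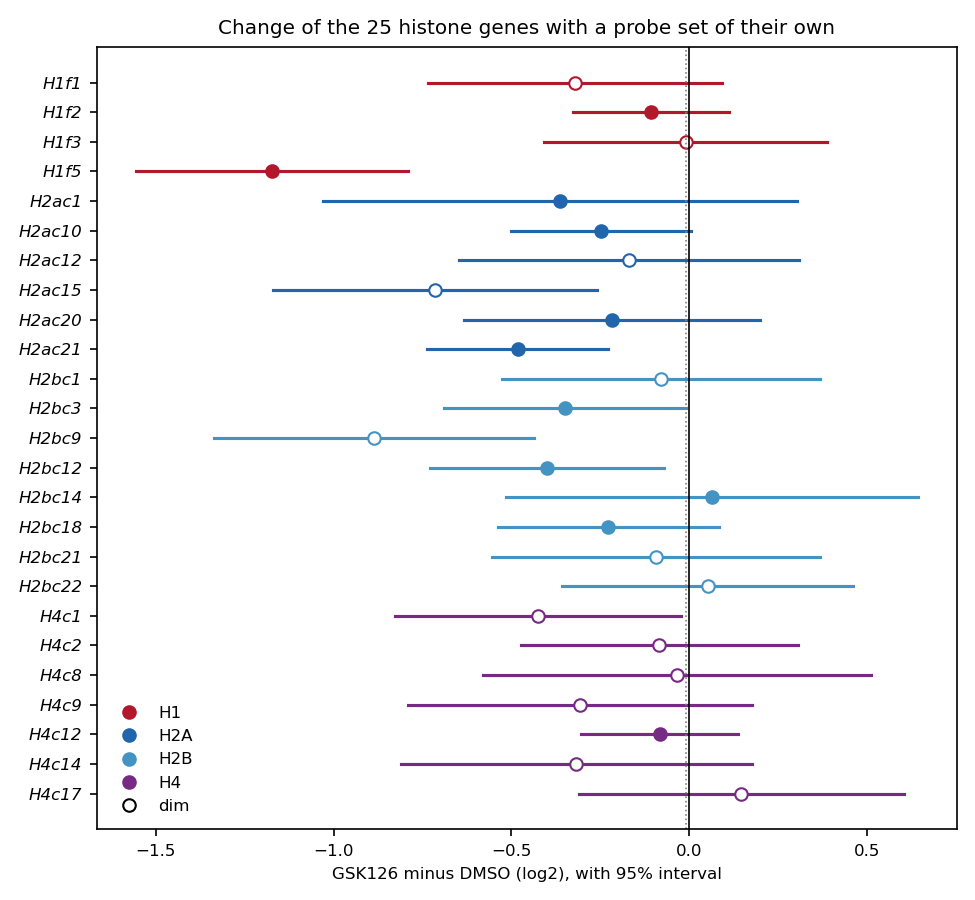
Change of each of the 25 genes (GSK126 minus DMSO, log2, x axis) with its 95% interval from limma, coloured by family, open where the gene is dim; the dotted line is the median of all genes, -0.01. The interval of H1f5 runs from -1.56 to -0.79, and 3 genes, H2bc14, H2bc22 and H4c17, have points above 0.

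Over the 25 genes, 22 had a lower mean with GSK126 and 3 a higher one, where 52.0% of all genes had a lower mean. Both treated arrays lay below both controls in 11 of the 25 (21.8% of all genes), and above them in 0 (18.2% of all genes). At an unadjusted p under 0.05 in limma, 7 were lower (5.93% of all genes) and 0 higher (4.64%), and 1 was called, H1f5. The median change was -0.23, against -0.01 over all genes. Taken by array, the median distance from the DMSO mean was -0.25 on GSK126 replicate 1 and -0.21 on replicate 2, where all genes gave 0.01 and -0.03, so the lower values were seen on both treated arrays. Among the 11 genes that were not dim, the median was -0.25 (-0.03 over all genes that were not dim). Of these 11, 10 had a lower mean (7829 of all 13308 genes that were not dim). In 6 both treated arrays lay below both controls (28.4% of all genes that were not dim). Without H1f5, the median over the remaining 24 genes was -0.22.

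The median change was -0.21 for the 4 linker genes and -0.23 for the 21 core genes. All 4 linker genes and 18 of the 21 core genes had a lower mean, and the groups did not overlap, with GSK126 lower, in 3 linker and 8 core genes (21.8% of all genes). The linker median lay between a small change in H1f2 and a larger one in H1f1, and with only H1f2 and H1f5 left when dim genes are dropped it became -0.64. The core median was -0.14 without DMSO replicate 1. By array, the linker median stood at -0.27 on GSK126 replicate 1 and -0.15 on replicate 2, and the core median at -0.25 and -0.24. With 4 linker genes, a difference between the classes was not tested.

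No H3 gene had a probe set of its own, so the family whose lysine 27 is methylated by EZH2 was read only through shared probe sets. The 30 shared probe sets included 2 whose values repeated those of an earlier one on all 4 arrays, which leaves 28 measurements. These come from the fit of all 41345 probe sets, in which none was called in limma (5 of the 28 lower and 1 higher at an unadjusted p under 0.05, against 3.72% and 3.35% of all probe sets). Of the 28, 26 had a lower mean with GSK126 (20565 of all 41345 probe sets), and the median change was -0.25 (0.001 over all probe sets). Both treated arrays lay below both controls in 14 (18.9% of all probe sets) and above them in 1 (17.7%). Shared probe sets read overlapping groups of genes, so they are not independent of each other or of the 25 genes.

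The H3 probe sets fell into 2 groups by the genes they name. H3c1, H3c8, H3c10 and H3c11 encode the H3.1 protein and shared 4 probe sets, all with a lower mean (median -0.47, range -0.51 to -0.28). Of these 4, 3 were dim. One of the dim ones gave 3.71 and 3.28 in DMSO and 3.02 and 2.96 with GSK126. The brightest gave 5.65 and 5.43 against 5.46 and 5.07, with overlapping groups and the smallest change of the 4 (-0.28). The 8 genes H3c2, H3c3, H3c4, H3c6, H3c7, H3c13, H3c14 and H3c15 encode H3.2 and shared 8 probe sets, 7 with a lower mean (median -0.21, range -0.52 to 0.03). The brightest of these gave 6.76 and 6.59 against 6.52 and 6.27 (change -0.28, SE 0.14). Both treated arrays lay below both controls in 2 of the 4, each of them dim, and in 2 of the 8. Of all probe sets 18.9% did so and the latter share is near it, and most of these H3 probe sets were dim.

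Of the bright shared probe sets, the H2A probe set that names 12 genes gave 11.41 and 11.33 in DMSO and 11.13 and 11.06 with GSK126 (change -0.27, SE 0.08). The 7 probe sets of 10 of these H2A genes all had a lower mean (median -0.33, range -0.62 to -0.02). Of these 7, 4 were dim and 3 had overlapping groups. The brightest gave 11.04 and 11.05 against 10.67 and 10.96 (change -0.23, SE 0.12). The one with the smallest p gave 9.34 and 9.11 against 8.69 and 8.71 (change -0.52, SE 0.11). H2ac18, H2ac19 and H2ac20 shared a probe set at 11.88 and 11.68 against 11.65 and 11.61 (change -0.15). For H2bc7, H2bc11, H2bc13 and H2bc15 the brightest of 3 gave 11.84 and 11.79 against 11.51 and 11.68 (change -0.22), and all 3 had a lower mean. The only H4 shared probe set, of 6 genes, gave 5.01 and 4.96 against 4.65 and 4.82 (change -0.25).

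The exception was a probe set of H2bc4, H2bc6 and H2bc8. It gave 7.64 and 7.73 in DMSO and 8.25 and 8.69 with GSK126, both treated arrays above both controls (change 0.79, SE 0.17, unadjusted p = 0.00529 and adjusted p = 0.598 in limma over all probe sets). A further probe set that names the same 3 genes gave 5.77 and 5.72 against 5.43 and 5.29, both treated arrays below both controls (change -0.39, SE 0.13). The annotation used here does not say which of the 3 transcripts, or which part of them, each one reads.

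**Figure D3:**
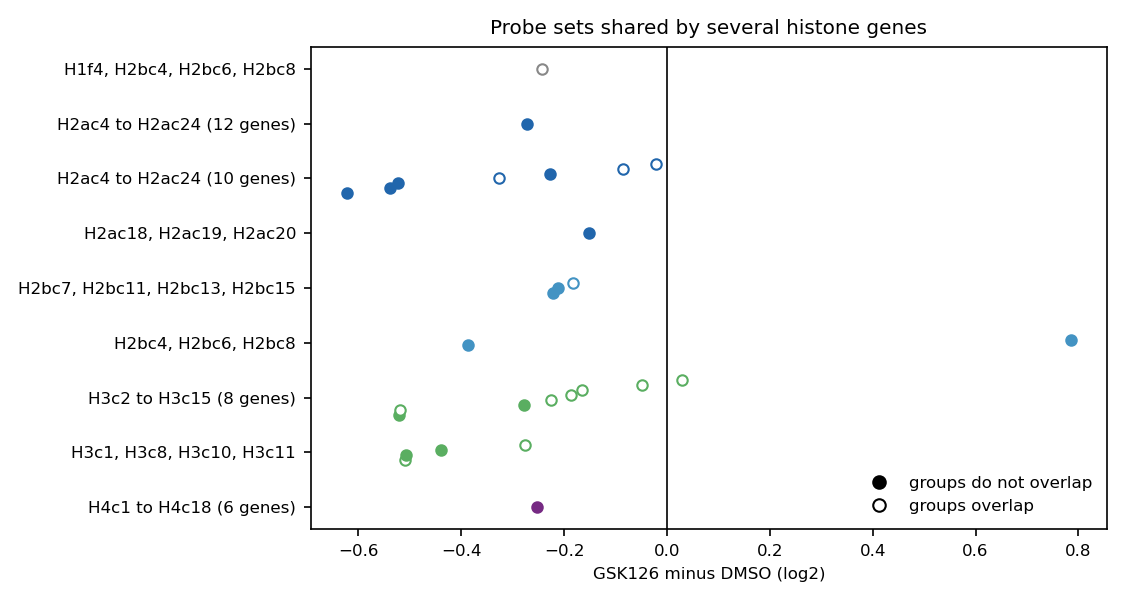
Change (GSK126 minus DMSO, log2, x axis) of the 28 shared probe sets, 1 point each, in rows by the genes they name; filled points are probe sets whose groups do not overlap. A probe set of H2bc4, H2bc6 and H2bc8 stands at 0.79, the other of these genes at -0.39, and the only other point above 0 is an H3 probe set at 0.03.

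Genes that make, process and deposit histones were next set beside the histone genes. Of 26 measured, 21 had a lower mean with GSK126 (median change -0.13), as did 7829 of the 13308 genes that were not dim. None was called in limma (7 lower and 0 higher at an unadjusted p under 0.05, against 5.93% and 4.64% of all genes). Of the 13308 genes that were not dim, 1204 were lower and 694 higher at that limit. Slbp, the stem-loop binding protein, gave 8.29 and 8.32 in DMSO and 7.97 and 7.94 with GSK126 (change -0.35, SE 0.09, adjusted p = 0.217 in limma). Its treated arrays lay below its controls by more than the spread within either group. Npat, the coactivator of histone gene transcription, gave 8.75 and 8.75 against 8.71 and 8.67 (change -0.06, SE 0.08). Eri1, the exonuclease that trims histone messages, was at -0.27 (SE 0.10).

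The remaining members of this list at an unadjusted p under 0.05 were histone chaperones and assembly factors. Asf1b, a chaperone of H3 and H4, was at -0.50 (SE 0.12), and Nasp, a chaperone of histone reserves, at -0.44 (SE 0.11). Chaf1a and Chaf1b, subunits of chromatin assembly factor 1, were at -0.46 (SE 0.12) and -0.40 (SE 0.09), and their partner Rbbp4 at -0.29 (SE 0.09). Over the whole list, both treated arrays lay below both controls in 17 of 26 genes and above them in 1, where 28.4% of genes that were not dim had both below; no member of the list was dim.

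Histone genes outside the chosen set included 12 with a probe set of their own, 9 with a lower mean (median -0.23). None was called in limma (4 lower and 0 higher at an unadjusted p under 0.05, against 5.93% and 4.64% of all genes). H2ax, the variant phosphorylated at DNA breaks, gave 9.81 and 9.998 in DMSO and 9.55 and 9.39 with GSK126 (change -0.43, SE 0.10). H4f16, a further gene of the H4 protein, was at -0.53 (SE 0.18), H2aj at -0.48 (SE 0.13) and Macroh2a1, a variant found in silent chromatin, at -0.21 (SE 0.08). The replacement linker gene H1f0 was not analysed here. Cenpa, the centromeric H3 variant, was at 0.04 (SE 0.09).

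S-phase genes, which license and copy DNA, form the last list, and it shares Slbp with the one above. None of the 28 measured was dim, and all 28 had a lower mean with GSK126 (median -0.29). Of all genes that were not dim, 7829 of 13308 had a lower mean. Both treated arrays lay below both controls in 25 of the 28, and in 28.4% of all genes that were not dim. At an unadjusted p under 0.05 in limma 19 were lower (5.93% of all genes, and 1204 of the 13308 that were not dim). Only 1 was called, the licensing gene Cdc6 (change -0.62, SE 0.09, adjusted p = 0.0455 in limma). Of all genes 0.171% were called lower, and of the 13308 that were not dim 38 were. Without the intensity trend neither Cdc6 nor any other gene was called in limma (1964 genes at an unadjusted p under 0.05). The helicase genes Mcm7 and Mcm5 were at -0.44 (SE 0.10) and -0.34 (SE 0.08).

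**Figure D4:**
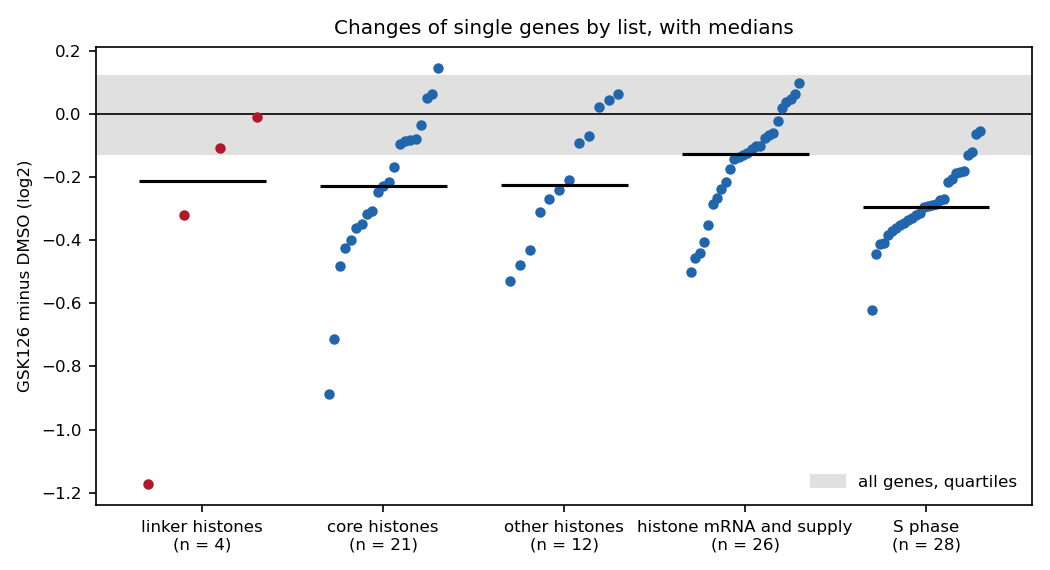
Change of single genes (GSK126 minus DMSO, log2, y axis), ordered within each list, for linker histones, core histones, other histone genes, genes of histone messages and supply, and S-phase genes; lines are medians and the grey band runs from the first to the third quartile of all genes, -0.13 to 0.12. The medians are -0.21, -0.23, -0.23, -0.13 and -0.29, and H1f5 is the lowest point at -1.17.

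By place in the genome, 20 of the 25 genes lie on chromosome 13 and 5 on chromosome 3 in RefSeq (GRCm38.p6). The median change was -0.21 on chromosome 13 (17 of 20 with a lower mean) and -0.23 on chromosome 3 (5 of 5). By promoter letters, 23 of the 25 genes were in the promoter table. The 18 with CCAAT in the 250 bases before the start on either strand had a median change of -0.28 (range -1.17 to 0.06), and the 5 without it, all H4 genes, -0.08 (range -0.31 to 0.15). CCAAT was present in 82.8% of the 58 histone promoters and in 33.8% of all promoters. The octamer ATTTGCAT, known from H2B promoters, was present in 7 of 15 H2B and 6 of 17 H2A promoters, and in no H1, H3 or H4 promoter. It was present in 22.4% of histone promoters and 1.6% of all promoters. The 8 genes with it had a median change of -0.22 and the 15 without it -0.25. For the H1 box letters the order was the other way from CCAAT, at -0.09 in the 6 genes with them and -0.25 in the 17 without. The 13 genes with TATAAA, which was present in 48.3% of histone promoters and 12.4% of all, had a median of -0.31 and the 10 without it -0.20. None of these differences was tested. H1f2, H1f3 and H1f5, whose promoters are printed here, all held AAACACA and CCAAT and had changes of -0.11, -0.01 and -1.17.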

How the data were processed

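Each array holds biotin-labelled RNA of 1 sample. The deposited values are log2 expression values, which the authors made by RMA (robust multi-array average) at the core-exon level, per the labels' protocols. Affymetrix Power Tools is among the programs in the submitters' processing notes. A genome build and the priming of the labelled RNA are not given in the sources used here, and histone messages lack a poly(A) tail.

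Each gene was represented by its probe set with the highest mean. Differences were fitted over all 22180 genes with limma 3.58.1 in R 4.3.3, with an intensity trend, two-sided p-values adjusted by Benjamini-Hochberg and called below 0.05, and 2 residual and 5.57 prior degrees of freedom. Shared probe sets came from a separate fit of the same form over all 41345 probe sets, with 2.97 prior degrees of freedom. Their SEs and p-values are therefore not on the same footing as those of the gene fit. The procedure was tested on simulated data. The histone genes and lists were chosen with earlier results of these data known. Text names all linker genes and, in each core family, genes by smallest p, highest and lowest change and highest level; other members are named to account for all of them, and Cenpa was chosen after its values were seen. Motifs were searched in RefSeq promoters matched by Entrez identifier.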

Additional observations from a re-analysis of the deposited data

How the results depend on the processing

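The count of histone genes past the threshold, 1, became 0 in limma in 3 settings that kept all arrays. Without the intensity trend, 5 were lower and 0 higher at an unadjusted p under 0.05 (1964 of all 22180 genes in either direction). With the replicate number as a replicate block these were 8 and 0 (2124 of all 22180), and the adjusted p of H1f5 was 0.0667. With every probe set tested by itself they were 10 and 1 of 56 histone probe sets, repeats included (2921 of all 41345). The call was also lost in each fit without 1 array, where the change of H1f5 ran from -1.35 to -0.997. The count stayed 1 with a robust prior, without dim genes, with averaged probe sets, with centred arrays and after quantile normalization. The labels do not say whether same-numbered arrays shared anything beyond the number. The difference between replicates 1 and 2 correlated at -0.03 between DMSO and GSK126 over all genes, which cannot settle this. Over all genes, 96 calls became 149 without dim genes, 10 with the block, 0 to 4 without 1 array, and 0 in limma without the trend or probe set by probe set (1964 and 2921 at an unadjusted p under 0.05). Calls split into 58 higher and 38 lower, and into 55 and 62 with arrays centred. The linker median, -0.21, became -0.64 without dim genes. The core median, -0.23, became -0.28 with centred arrays, where the median of all genes was -0.06, and ran from -0.25 to -0.14 without 1 array. The lowest and highest changes without 1 array crossed 0 for H1f3 (-0.18 to 0.16), H2ac12 (-0.40 to 0.065), H2bc14 (-0.25 to 0.38), H4c12 (-0.19 to 0.020) and H4c17 (-0.055 to 0.35). The cause was not tested. In all, 7 changes of named genes turned sign and 7 lost their call, all of the latter for H1f5, and 158 did neither. Only H1f5 had a call to lose, so the other named genes among the 158 kept their sign and stayed uncalled. Without the trend, with a robust prior, with the block or probe set by probe set, changes stayed as they were and no sign could turn. The 2 arrays a group, and dim values for 14 of 25 genes, limit the precision.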
